A study of Mus musculus with 15 samples.

Results

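Accessible chromatin was compared between mouse bone marrow-derived macrophages stimulated with bacterial lipopolysaccharide (LPS) for 2 h and untreated macrophages. The 6 libraries concerned, 3 per group, were taken by their sample titles from the 15 libraries of a time course. All were primary cells of C57BL/6 mice grown in medium conditioned by L929 cells and used on day 7 of differentiation. The stimulated cells received LPS at 10 ng/ml for 2 h, and the untreated cells received none. The labels speak of triplicates without saying whether these were separate mice or cultures, so the p-values measure the spread between libraries, which may be technical.

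LPS is a cell wall component of Gram-negative bacteria that macrophages sense through the receptor TLR4 with its partners CD14 and MD-2. The receptor signals through the adaptor MyD88 to NF-kB and AP-1 transcription factors and through the adaptor TRIF to IRF3, which induces interferon beta. Secreted interferon then acts back on the cells, so that early response genes are followed by a later, interferon-dependent set. ATAC-seq reports where a transposase can cut the DNA, which is mostly at promoters, enhancers and other sites cleared of nucleosomes. A peak marks a stretch with an excess of cuts, a wide peak a long open stretch.

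Each library came with its own list of peaks on mouse build mm9, and 4 properties of these lists were compared. They were the presence of a peak, the base pairs that peaks covered, the peak width, and the rank of a peak by the caller's score. Peaks of the 6 lists that shared at least 1 bp were merged into 94649 regions with a median length of 1605 bp. No genome or annotation of build mm9 was used here, so regions are given by position, their genes are not named, and markers of macrophages or other cells were not checked. Read depth is unknown, and chromatin without a listed peak may still be open below the caller's threshold.

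The lists at 2 h held 80899, 82222 and 66955 nuclear peaks in replicates 1, 2 and 3, against 60140, 73511 and 62180 in the untreated libraries. The ranges overlapped, since the third list at 2 h was shorter than the second untreated one (exact two-sided permutation p = 0.2, where 3 against 3 libraries allow no p below 0.1). The peaks covered 126.2, 127.5 and 112.5 Mb at 2 h, against 84.4, 119.5 and 97.9 Mb in untreated cells, a difference in means of 21.5 Mb (exact permutation p = 0.2). The untreated libraries thus spread more widely, with replicate 1 at the low end, and without that library the difference was 13.3 Mb. With every list cut to its 60140 highest-scoring peaks, the difference in covered length was 9.93 Mb (exact permutation p = 0.4). Untreated replicate 2, at 105.8 Mb, then lay above all 3 libraries at 2 h, and the other untreated libraries lay below them. The median peak width was 1362, 1345 and 1486 bp at 2 h and 1255, 1431 and 1426 bp in untreated cells. This difference of 27.0 bp lay within the spread (exact permutation p = 0.8), and it turned to -17.2 bp without replicate 3 of the 2 h libraries and to -30.8 bp without untreated replicate 1.

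**Figure D1:**
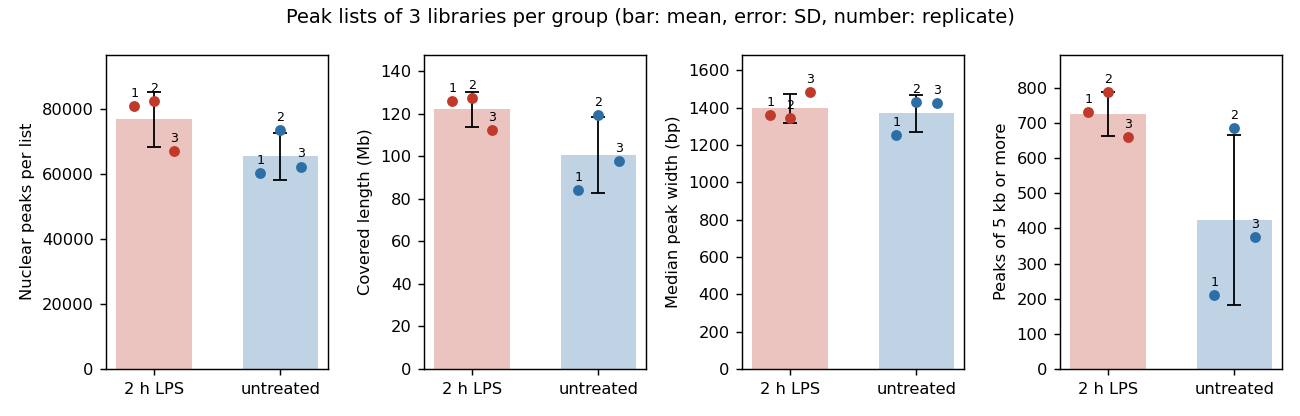
Number of nuclear peaks, covered length in Mb, median peak width in bp and number of peaks of 5 kb or more, for 3 libraries at 2 h of LPS (red) and 3 untreated libraries (blue). Bars are means, error bars the SD, and each point is a library with its replicate number. Untreated replicate 1 has the fewest wide peaks, 210, while untreated replicate 2 with 685 lies among the LPS libraries.

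Peaks of 5 kb or more numbered 730, 787 and 661 at 2 h, against 210, 685 and 376 in the untreated lists. The difference in means was 302.3 peaks (exact permutation p = 0.2) and 195.5 without untreated replicate 1. The longest single peak spanned 93705, 96148 and 73658 bp at 2 h and 29377, 31214 and 51243 bp in the untreated lists. In this property the groups did not overlap, but it rests on 1 peak per list and was not tested. In replicate 2 at 2 h that peak was the one at chr11:119258997-119356865, a region described below.

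A peak was present in all 6 libraries in 43033 regions (45.5% of all). These regions were accessible in stimulated and untreated cells alike and make up the set in which widths and ranks could be compared. Among the rest, more libraries at 2 h than untreated ones had a peak in 32413 regions, and the reverse was true of 13958. Of the regions counted in either direction, 14881 carried a peak in 1 library only. This excess at 2 h depended on list length. With lists cut to equal length, described below, regions with more untreated libraries were slightly more numerous than the reverse. Regions with a peak in 1 library only then numbered 4618 at 2 h and 6883 untreated, against 9118 and 5763 at full length.

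Regions were called gained where all 3 libraries at 2 h and no untreated library had a peak, and lost in the reverse case. By this rule 5512 regions were gained, 5.82% of all regions, and 888 were lost, 0.938% of all. No single region can pass a test of presence, since Fisher's exact test gives 0.1 at best with 3 against 3. Both counts moved when single libraries were left out, with the rule then asking for a peak in both remaining libraries of that group. Without replicate 3 of the 2 h libraries 9842 regions were gained, and leaving out untreated replicate 1 gave 2424 lost regions, untreated replicate 3 gave 1499 and replicate 2 of the 2 h libraries gave 1496.

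With every list cut to its 60140 highest-scoring peaks, 3919 regions were gained (5.02% of 78125 regions) and 2282 were lost (2.92%). Gains then outnumbered losses by 1.72 to 1, in place of 6.21 to 1 at full length. Of the regions gained at full length, 3115 were gained in the cut lists too, which is 56.5% of the longer and 79.5% of the shorter list. Of the lost regions, 640 were lost in both, 72.1% of those at full length and 28.0% of those in the cut lists. The direction, with more gains than losses, was the same in both settings, but its size differed with list length.

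**Figure D2:**
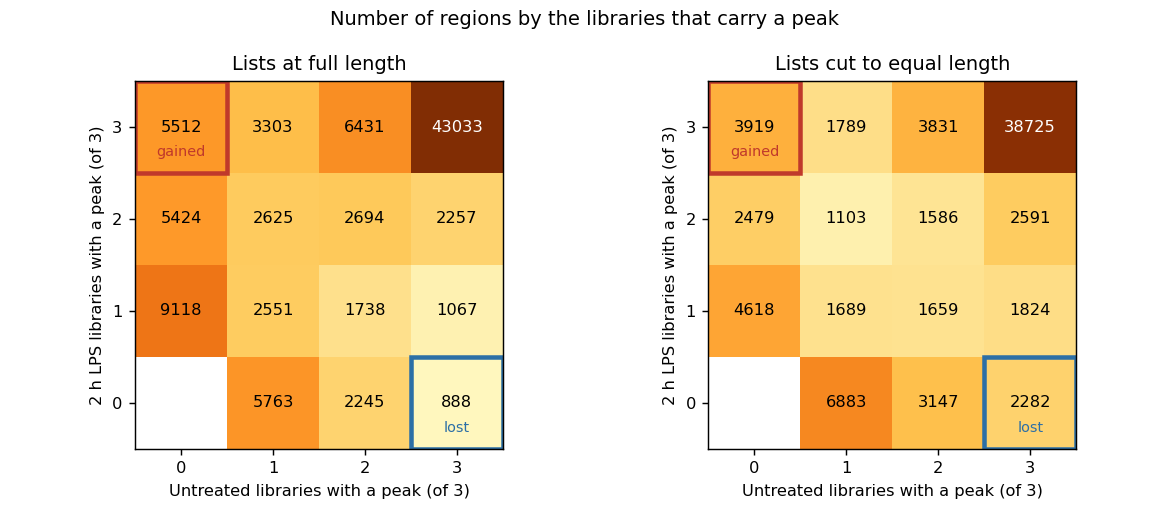
Regions by the number of libraries with a peak, from 0 to 3 at 2 h of LPS (vertical axis) and from 0 to 3 untreated (horizontal axis), for lists at full length (left) and cut to equal length (right), with the count in each field and a log colour scale. The field of gained regions falls to 3919 from 5512 with cut lists while that of lost regions rises to 2282 from 888, and regions with a peak in all 6 libraries remain the largest field.

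Gained peaks were of middling or low rank in their lists. Their median score stood at percentile 41.2, 40.9 and 27.5 of the 3 lists at 2 h, and 36.7%, 35.2% and 20.1% of them lay above their list's median. Lost peaks stood at percentiles 17.4, 29.3 and 28.2 of the untreated lists. Their median lengths were 990.5, 1273 and 1239.5 bp, where gained peaks had 1295, 1284.5 and 1278 bp. Only in untreated replicate 1, whose whole list had the shortest median, were lost peaks much shorter than gained ones. Peaks in regions shared by all 6 libraries had medians of 1643 to 1652 bp at 2 h and 1431 to 1687 bp in untreated cells.

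A small number of gained regions carried peaks of the highest rank, and these 12 were named by the lowest percentile among the 3 libraries. The first lay at chr16:84715603-84719573, where peaks covered 3748, 3971 and 3802 bp in the libraries at 2 h and none was called in untreated cells. It adjoins a region with a peak in all 6 libraries, and with peaks up to 500 bp apart merged it joined that region and was no longer gained. Its score was 3100 in all 3 lists, a value at which 5.44% of the peaks of the 6 lists are tied. The region at chr7:81671762-81675558 reached the same score in each list, with 3463, 3172 and 3797 bp, and so did the one at chr4:117820688-117823006, with 2239, 2258 and 2078 bp. The longest of the 12, at chr3:142180954-142188994, was covered over 8028, 7927 and 7232 bp.

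These regions differed in when a peak was first called, in libraries that the choice had not used. The region at chr3:142180954-142188994 was without a peak in all 3 libraries at 30 min, with one in 2 of 3 at 1 h and in 3 of 3 at 4 h. Those at chr18:11885813-11887517, chr12:56465386-56467357 and chr10:7661733-7663873 were called in 2 of 3 libraries at 30 min and in 3 of 3 at 1 h and 4 h. The other 8 were already called in every library at 30 min, and all 12 in every library at 4 h. Among these 8 were the regions at chr16:52424481-52427148, chr4:134861815-134867139, chr18:5509461-5511260, chr10:122327108-122329686 and chr2:157232470-157234503.

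The lost regions of highest rank stood at lower percentiles of their lists. They were picked from 888 regions and the gained ones from 5512, so the extremes of these classes cannot be set against each other. The first lost region, at chr6:122529458-122538569, was covered by peaks over 7484, 8273 and 8321 bp in untreated cells and by none at 2 h. Its scores in the untreated lists were 1624.85, 3100 and 1770.51, placing it at percentiles 89.9, 95.9 and 86.9. It scored 2689.15, 1053.21 and 619.62 in the lists at 30 min, had a peak of score 145.18 in 1 library at 1 h, and scored 204.2, 265.86 and 161.07 at 4 h. A peak was therefore called again at 4 h in each library.

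The second lost region, at chr4:19782505-19784329, scored 737.06, 1267.82 and 2579.38 in the untreated lists. All 3 libraries at 30 min still called it, with scores of 578.08, 352.98 and 453.12, and no library did at 1 h, 2 h or 4 h. The region at chr14:48004706-48010510 was covered over 5300, 3456 and 5608 bp in untreated cells, was called in 1 of the 3 libraries at 1 h, and was absent at 2 h and 4 h. From the seventh to the twelfth named loss the lowest percentile lay between 53.8 and 58.5, near the middle of the untreated lists. The twelfth, at chr13:113222837-113224426, was without a peak in all libraries at 1 h, 2 h and 4 h.

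Some gained regions lay close together. In 110 stretches of up to 100 kb, counted by the starts of their regions, 5 or more gained regions stood together, 663 regions or 12% of those gained. The fewer lost regions formed 1 such stretch, with 5 regions or 0.563% of those lost, at chr3:79257212-79321296. With so unequal numbers of gained and lost regions these counts cannot be set against each other, and no test was made of either. The densest stretches held 11 gained regions each. One was at chr2:68826540-68913434, among 20 regions in all, and the other at chr10:18792360-18886359, among 21. The 2 regions open in all 6 libraries within the first of these, and the 1 within the second, were all wider and higher in rank at 2 h by the tests below. Stretches with 10 gained regions lay at chr6:134652976-134733388, chr7:81573452-81675558 and chr11:20980561-21079393. Of the regions open in all 6 libraries within these, 0 of 1, 2 of 2 and 0 of 3 ranked higher at 2 h. In the same order, 0, 2 and 1 were wider, so the dense stretches differed in this. None of these 5 stretches held a lost region. Lost regions were only 0.938% of all regions, so their absence from so few regions tells little.

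Width was compared in the 43033 regions with a peak in all 6 libraries, as the log2 of the base pairs under a library's peaks, centred on the library's median. By limma with Benjamini-Hochberg adjustment, 1175 regions were wider at 2 h, 2.73% of those tested, and 324 were narrower, 0.753% of those tested. In 459 of the wider regions the covered length was at least 2 times that of untreated cells on this scale, and 68 narrower regions fell to a proportion equally far below. The median change was 0.89 (log2) among wider and -0.79 among narrower regions, where it was -0.01 over all regions tested. The count of wider regions was 639, 621 and 780 without replicates 1, 2 and 3 at 2 h, and that of narrower regions 209 without replicate 1 at 2 h and 209 without untreated replicate 2. Whenever a library was left out, here and below, regions were merged anew from the lists kept. Values for a named region are then those of the new region that overlaps it most, which may be only a part of it.

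The largest change was at chr19:34713021-34729490. Peaks covered 16153, 15480 and 14902 bp of it at 2 h, against 1097, 1736 and 1601 bp in untreated cells. The log2 difference was 3.35 ± 0.12 (SE, n = 3 against 3, limma adjusted p = 6.34e-06). Without replicate 1 at 2 h, regions being merged anew from 5 lists, it was 2.64. A single short peak in untreated cells thus gave way to open chromatin over nearly the whole region. At 30 min this region was covered over 1440, 1084 and 1679 bp and at 1 h over 1126, 1589 and 1558 bp, and at 4 h over 16362, 16449 and 15806 bp. Up to 1 h it was about as short as in untreated cells, and at 4 h about as long as at 2 h.

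The same course was seen in other regions among the 10 that widened most. The longest, at chr11:119258997-119356865, was covered over 96762, 96148 and 94145 bp by 2, 1 and 3 peaks at 2 h, against 9024, 12140 and 19310 bp in 7, 8 and 11 separate peaks in untreated cells (log2 difference 2.83 ± 0.21 SE, limma adjusted p = 0.00018). Coverage was 10634 to 15040 bp in the libraries at 1 h and 91232 to 97675 bp at 4 h. The region at chr16:97754637-97792082 had 37408, 36898 and 36895 bp at 2 h, against 3012, 3819 and 4679 bp in untreated cells (3.22 ± 0.12 SE, limma adjusted p = 6.34e-06). Without replicate 1 at 2 h the difference was 1.96 (limma adjusted p = 0.00161). Coverage was 2305 to 3779 bp at 1 h and 36104 to 37446 bp at 4 h. At chr12:27153249-27169234 the libraries at 2 h had 15721, 13478 and 15190 bp and the untreated ones 1328, 1722 and 1982 bp, with 1389 to 1742 bp at 1 h and all 15986 bp at 4 h. Its log2 difference of 3.09 was 1.097 without replicate 1 at 2 h (limma adjusted p = 0.017). At chr5:115370366-115391090 the values were 19887, 18911 and 14814 bp at 2 h and 1316, 2322 and 2676 bp in untreated cells, with 2433 to 3835 bp at 1 h, and the log2 difference of 3.07 was 2.17 without replicate 2 at 2 h.

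Other regions of the 10 had widened earlier. At chr16:84698649-84715533, directly beside the first gained region, peaks covered 16771, 16354 and 15684 bp at 2 h and 1758, 2357 and 1081 bp in untreated cells (log2 difference 3.23 ± 0.23 SE, limma adjusted p = 0.000147). Coverage had reached 8238, 16033 and 12926 bp at 30 min and 15645 to 16189 bp at 1 h. At chr2:68729871-68756116 it was 25890, 26232 and 25863 bp at 2 h and 3506, 4918 and 1562 bp in untreated cells, with 8382 to 16756 bp at 30 min and 16010 to 24780 bp at 1 h. Here the libraries at 4 h, with 12179, 19783 and 11397 bp, lay below all 3 at 2 h.

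The region at chr1:151946244-151957261 took an intermediate course. It was covered over 7102, 10324 and 10001 bp at 2 h, 1115, 1253 and 1355 bp in untreated cells, and 4171 to 5673 bp at 1 h, and its call was lost without replicate 2 of the 2 h libraries (limma adjusted p = 0.183). The remaining members were at chr3:142155747-142175613, next to the longest gained region named above, and at chr16:57574270-57579461. They were covered over 7.08 and 7.04 times as many base pairs at 2 h as in untreated cells. The log2 difference of the first, 2.79, was 2.09 without replicate 1 at 2 h.

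**Figure D3:**
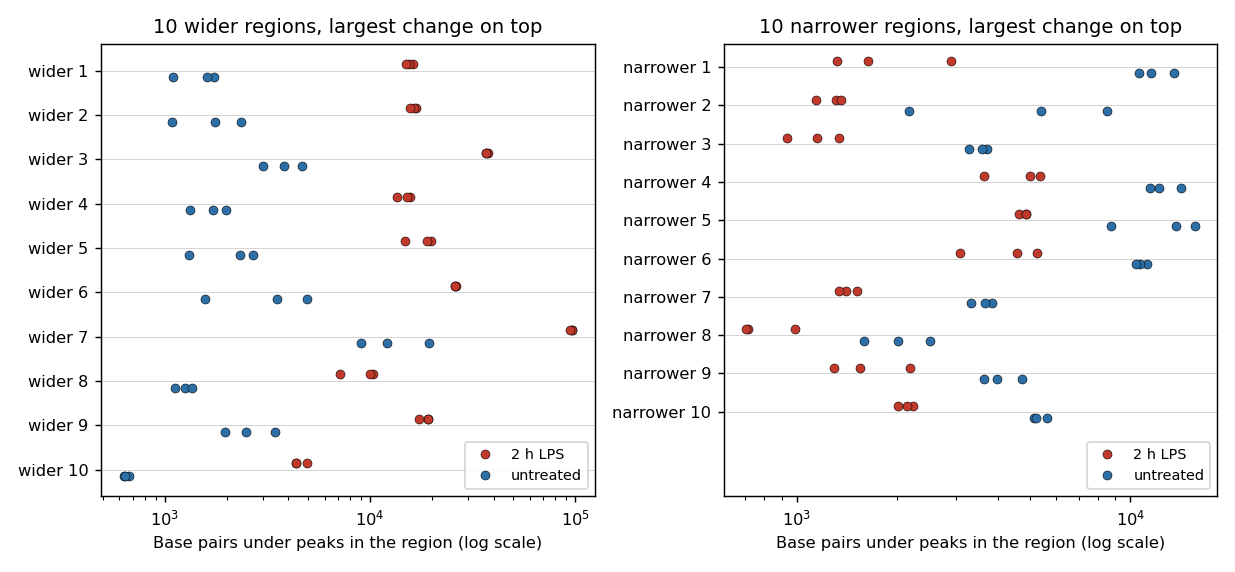
Base pairs under peaks (log axis) in each library at 2 h of LPS (red, upper row of each pair) and each untreated library (blue, lower row), for the 10 regions that widened most (left) and the 10 that narrowed most (right), in order of the size of the change. In each of the 20 regions the points of the groups stand apart, as the choice of regions required. Wider region 7, on chromosome 11, reaches 96762 bp.

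Narrowing was less common and smaller. The largest decrease was at chr10:59756222-59770048, where peaks covered 2898, 1322 and 1640 bp at 2 h, against 13549, 10635 and 11540 bp in untreated cells. The log2 difference was -2.76 ± 0.26 (SE, n = 3 against 3, limma adjusted p = 0.000722), and -2.10 without untreated replicate 1. Coverage was 13827, 2216 and 10478 bp at 30 min, 1155 to 1962 bp at 1 h and 4582 to 9273 bp at 4 h, so that every library at 4 h lay above all 3 libraries at 2 h and below all 3 untreated ones. On chromosome 13, neighbouring regions at 24890217 to 24905896 and at 24906053 to 24911679 both narrowed. The second had 2235, 2140 and 2012 bp at 2 h and 5146, 5627 and 5203 bp in untreated cells (-1.40 ± 0.09 SE, limma adjusted p = 0.000124). The first had 4645, 4859 and 4858 bp at 2 h and 13683, 15627 and 8753 bp in untreated cells. Without untreated replicate 2, the newly merged region that overlaps it most changed by -0.21 (limma adjusted p = 0.411). That value belongs to a part of the first region. Over the whole of it, untreated replicates 1 and 3 also lay above all libraries at 2 h.

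At chr14:31970329-31984530 the peaks covered 4987, 5353 and 3648 bp at 2 h and 11455, 14202 and 12192 bp in untreated cells (-1.52 ± 0.14 SE, limma adjusted p = 0.00056). At 47992725 to 48004394, just before the lost region on that chromosome, they covered 5251, 4578 and 3081 bp at 2 h and 11242, 10670 and 10433 bp in untreated cells (-1.43 ± 0.18 SE, limma adjusted p = 0.00306). This call was lost with the widest single peak in place of covered width (-1.41, limma adjusted p = 0.152), and with peaks up to 500 bp apart merged the neighbouring loss no longer met its rule. The second largest decrease, at chr5:34901110-34909647, rested on untreated libraries of 5392, 8538 and 2170 bp that differed among themselves. It had 1145, 1315 and 1354 bp at 2 h, and its call was lost when any 1 of 5 libraries was left out, with limma adjusted p between 0.0695 and 0.594.

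Some regions changed in the number of peaks that made them up. In 168 regions (0.39% of those with a peak in all 6 libraries) every library at 2 h had 1 peak where every untreated library had 2 or more, and in 198 (0.46%) the reverse held. These classes, and the longest regions named from them, were chosen after their values had been seen. The longest joined region, at chr1:132933849-132962272, was 1 peak of 28256, 28424 and 28294 bp at 2 h, against 4, 7 and 4 peaks covering 5782, 14204 and 7581 bp in untreated cells. The next, at chr2:164243875-164271057, was 1 peak of 26529, 26728 and 26919 bp at 2 h, against 4, 4 and 2 peaks covering 6808, 8582 and 6488 bp. Another, at chr10:18714756-18736552, was 1 peak of 21663, 21439 and 21767 bp at 2 h, against 5, 6 and 4 peaks covering 8303, 10965 and 5725 bp. This region lay inside a stretch of 8 gained regions, at chr10:18654108-18751842. Splitting into several peaks went along with gain as well as loss of width, since 4 of the 5 longest split regions covered more base pairs at 2 h.

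Score ranks were compared in the same 43033 regions, each given its percentile among them in every library, so that list length did not enter. By limma with Benjamini-Hochberg adjustment, 4074 regions (9.47% of those tested) ranked higher at 2 h and 4551 (10.6%) ranked lower. Ranks are relative, so that rises and falls must balance, and these numbers do not show net opening or closing. The percentiles of the groups stood fully apart in 8041 regions higher at 2 h (18.7%) and in 8501 lower at 2 h (19.8%). The change was at least 25 percentile points in 2306 of the higher and 2171 of the lower regions, and at least 50 points in 407 and 115. The largest shifts were thus more often upward.

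Libraries at 2 h ranked these regions nearly alike, with Pearson correlations across regions of 0.947 to 0.959 between them. Untreated replicates 1 and 2 correlated at 0.947, and replicate 3 at 0.861 and 0.878 with them, while libraries of different groups correlated at 0.729 to 0.821. Untreated replicate 3 therefore stood somewhat apart from its group. Without it 4836 regions ranked higher and 5038 lower at 2 h, more than with it, but 46513 regions were then tested in place of 43033. Without replicates 1, 2 or 3 at 2 h the higher regions numbered 2362, 2442 and 2624 and the lower ones 2315, 2588 and 2905.

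Regions that ranked higher started low. Their median percentile was 64.7 to 65.4 in the libraries at 2 h, against 29.9 to 30.8 in untreated ones, and peaks covered a median of 1893, 1899 and 1874 bp at 2 h, against 1292, 1600 and 1481 bp. Regions that ranked lower had median percentiles of 31.5, 31.5 and 32.8 at 2 h, against 59.9, 59.5 and 63.2 in untreated cells. Their median covered width was 1518 to 1534 bp at 2 h and 1524 to 1754 bp in untreated cells. Since the regions were called on these ranks, the levels are a description.

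The largest rise was at chr11:44202878-44204904. It stood at percentiles 93.8, 93.6 and 95.6 at 2 h, against 0.0686, 7.54 and 0.418 in untreated cells, a difference of 91.7 ± 3.34 points (SE, n = 3 against 3, limma adjusted p = 0.000561). Its score was the tied value of 3100 in all lists at 2 h and 50.39, 147.39 and 52.67 in the untreated lists, where 50 is the lowest score listed. In 2 of the 3 untreated lists the peak was thus barely called, and in each list at 2 h it was among the top peaks. In the lists at 30 min it scored 366.31, 1201.89 and 782.65, and in those at 1 h 3100 in each. The wide region at chr16:84698649-84715533 came second, at percentiles 93.8, 93.6 and 99.5 at 2 h, against 7.11, 4.86 and 7.83 in untreated cells (89.0 ± 3.17 points SE, limma adjusted p = 0.000561).

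The other 8 named rises lay between 80.8 and 85.9 points. The region at chr9:20814881-20817527 stood at percentiles 80.1, 93.6 and 83.1 at 2 h, against 0.304, 2.85 and 2.19 in untreated cells (83.8 ± 4.21 points SE, limma adjusted p = 0.000561). Its scores were 939.61, 2438.08 and 1057.79 in the lists at 1 h, 2147.89, 3100 and 1940.07 at 2 h, and 379.1, 442.61 and 107.33 at 4 h. The region at chr4:62875498-62879683 had scores of 2775.83, 3100 and 3133.03 at 2 h and of 835.85, 693.42 and 216.99 at 4 h. At chr10:74778567-74782179 scores were 3100 in all lists at 2 h and 3100, 3100 and 1889.77 at 4 h. These scores come from separate lists of unknown depth, and the ranks of these regions at 4 h were not compared. Other named rises were at chr12:8391392-8394649, chr14:73262035-73265610, chr18:65533566-65536855, chr1:80609285-80613130 and chr5:91146195-91148783.

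Among the falls in rank, the largest was at chr16:23373978-23377153. It stood at percentiles 6.99, 7.58 and 30.0 at 2 h, against 90.4, 100 and 95.6 in untreated cells, a difference of -80.5 ± 6.79 points (SE, n = 3 against 3, limma adjusted p = 0.00128). Its width fell as well, with a log2 difference of -1.19 (limma adjusted p = 0.000908). Most other named falls did not pass the test of width. The region at chr1:129908787-129911652 stood at percentiles 0.443, 0.457 and 15.3 at 2 h, against 89.5, 82.8 and 65.2 in untreated cells, with a width difference of 0.01 (log2, limma adjusted p = 0.997). That at chr13:33026090-33027960 stood at 3.48, 4.17 and 7.89 at 2 h, against 76.3, 77.9 and 70.8 in untreated cells, with a width difference of -0.39 (limma adjusted p = 0.315). The region on chromosome 1 held 2, 2 and 1 peaks at 2 h, against 1 in each untreated library. Its width at 2 h was thus a sum over several peaks in replicates 1 and 2. The region on chromosome 13 held 1 peak in every library. There a strong peak became a weak one without a change in width that these libraries could resolve.

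The remaining differences lay between -73.4 and -63.9 points, at chr3:79338251-79344480, chr3:55430295-55432088, chr10:59823073-59826704, chr8:85577937-85580048, chr4:134174051-134176282, chr13:98317774-98319561 and chr11:51738459-51741583. Without untreated replicate 3, the newly merged region that overlaps the first of these most differed by -35.9 points (limma adjusted p = 0.00539). The first region as named stood at percentiles 88.6 and 72.8 in untreated replicates 1 and 2. The one on chromosome 10 came after the region that narrowed most, and the first on chromosome 3 after the only stretch of 5 lost regions.

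**Figure D4:**
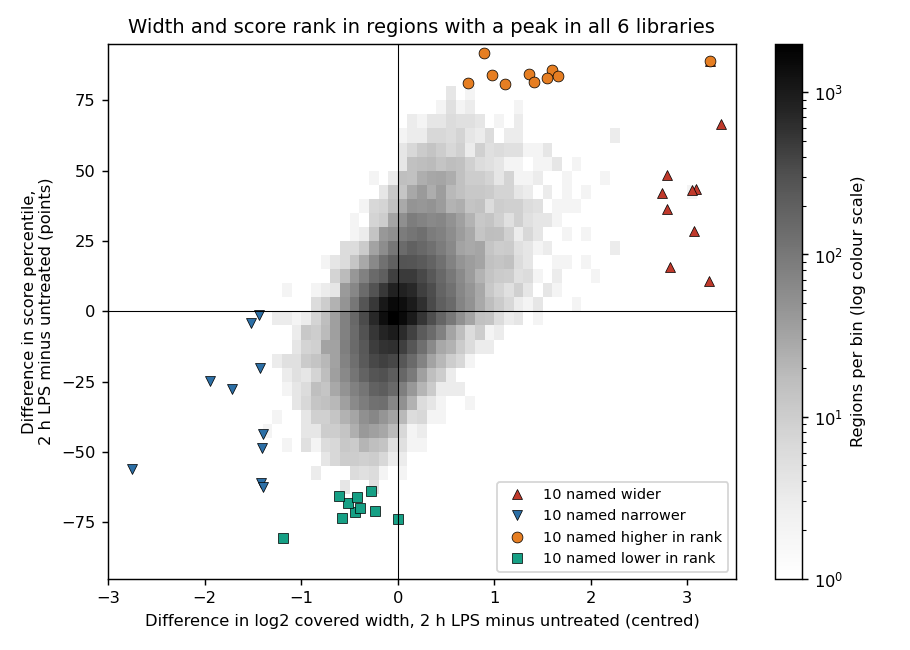
Difference in log2 covered width (horizontal axis, 2 h LPS minus untreated, centred per library) against the difference in score percentile (vertical axis, in points), for 43033 regions with a peak in all 6 libraries, with the number per bin in grey on a log scale. Coloured marks are the 10 named regions of each class, and 1 region is among both the wider and the higher ones. The 10 named wider regions lie at 10.8 to 89.0 points above 0 in rank, and the 10 named higher ones at 0.73 to 3.23 in width.

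Width and rank come from the same peaks and are not independent readouts. Of the wider regions 590 also ranked higher, which is 50.2% of the wider and 14.5% of the higher regions, and 16 ranked lower. Of the narrower regions 174 also ranked lower, which is 53.7% of the narrower and 3.82% of the lower regions, and 2 ranked higher. Over all regions tested, 9.47% ranked higher and 10.6% lower, and 2.73% were wider and 0.753% narrower. The overlaps in the same direction thus lay above the shares over all regions. Still, about as many wider regions passed in rank as did not, and most regions that shifted in rank did not pass in width.

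Neighbours of gained regions ranked higher at 2 h in a larger share than all regions did, and neighbours of lost regions ranked lower, though most neighbours passed in neither direction. For each gained region within 20 kb of a region open in all 6 libraries (4326 regions), the nearest of these had ranked higher at 2 h in 24.9% and lower in 4.18%. For lost regions (662 within 20 kb) the nearest had ranked higher in 3.63% and lower in 24.2%. Over all regions open in all 6 libraries the shares were 9.47% and 10.6%, and next to regions that varied but were neither gained nor lost they were 11% and 9.96%. Widening showed the same order, with 10.5% of neighbours of gained regions, 0.755% of neighbours of lost regions and 2.73% of all regions. These shares come from the same 6 libraries as the calls and are given as a description. The median gap to the nearest region open in all 6 libraries was 6939 bp for gained, 6307 bp for lost and 7748 bp for other varying regions.

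The 9 libraries at 30 min, 1 h and 4 h took no part in these calls. Of the regions gained at 2 h, 34.5%, 52.1% and 16.3% had a peak in the libraries at 30 min, 62.5%, 77.8% and 32.8% at 1 h and 79.9%, 73.7% and 43.8% at 4 h. Over all regions the shares were 69.4%, 72.1% and 52.7% at 30 min, 67.7%, 73.5% and 49.2% at 1 h and 75.5%, 72.5% and 54.0% at 4 h, with replicate 3 lowest in each case. Gained regions were thus called less often than all regions at 30 min in each library, and at 4 h slightly more often in replicates 1 and 2 and less often in replicate 3. Of the regions lost at 2 h, 70.0%, 53.2% and 33.2% had a peak at 30 min, 22.9%, 25.3% and 4.28% at 1 h and 29.1%, 24.1% and 11.3% at 4 h. Every library at 30 min thus held more of the lost regions than any library at 1 h or 4 h. For gained regions the range at 30 min overlapped those at 1 h and 4 h.

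Ranks and widths were followed in the 35268 regions with a peak in all 15 libraries, ranked anew among themselves. The 3630 of them that ranked higher at 2 h had median percentiles of 22.5 to 23.4 in untreated libraries, 38 to 44.8 at 30 min, 51.3 to 56.1 at 1 h, 61.2 to 62.2 at 2 h and 54.3 to 55.4 at 4 h. The 3647 that ranked lower had 58.2 to 62.2 in untreated libraries, 42.1 to 48.3 at 30 min, 33.8 to 37.3 at 1 h, 27.6 to 28.9 at 2 h and 32.9 to 36.9 at 4 h. In these ranks no library of another time reached the levels at 2 h, at which the regions were chosen. The 1058 wider regions had a median covered width of 1541 to 1903.5 bp in untreated libraries, 2125 to 2614.5 bp at 30 min, 2476.5 to 2970.5 bp at 1 h, 3433 to 3576.5 bp at 2 h and 2790.5 to 3293 bp at 4 h. The 284 narrower ones had 2733 to 3119.5 bp, 2242 to 2731.5 bp, 1659 to 1966.5 bp, 1726.5 to 1779 bp and 1762.5 to 2322 bp in the same order of times. Here replicate 3 at 1 h lay below all libraries at 2 h, and replicate 3 at 4 h among them. These widths were not centred. Over all 35268 regions the median was 1740 to 1745 bp in the libraries at 2 h. It was 1586 bp in replicate 3 at 1 h and 1621 bp in replicate 3 at 4 h. Both libraries thus had shorter widths than those at 2 h over all regions, and the order is not particular to the narrower ones.

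**Figure D5:**
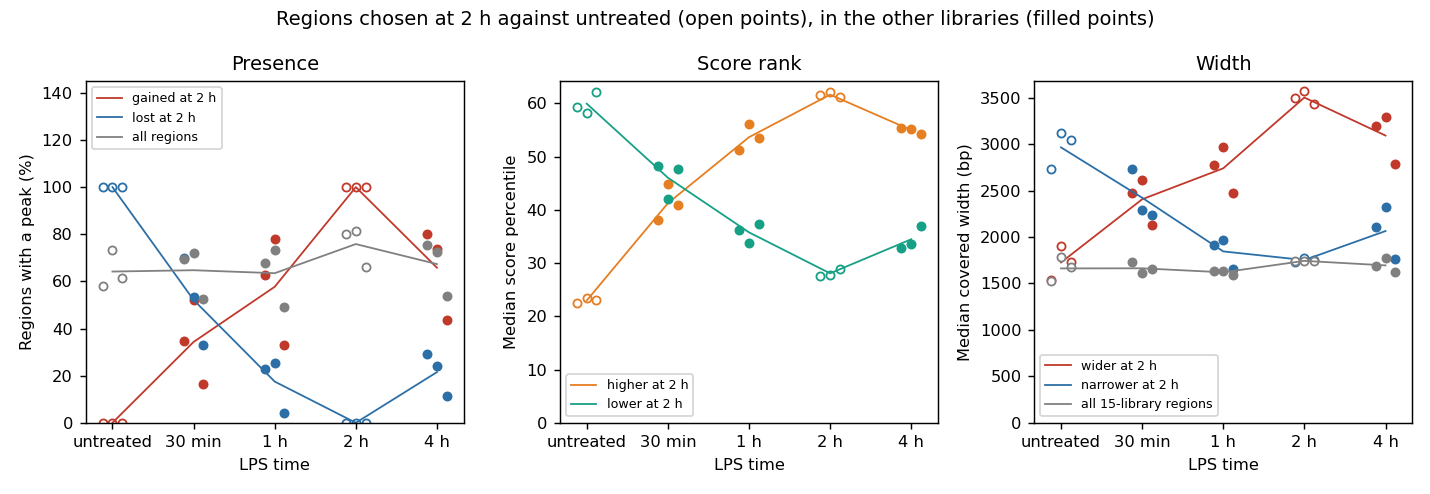
Regions chosen at 2 h against untreated, followed over untreated cells and 30 min, 1 h, 2 h and 4 h of LPS: share of regions with a peak in percent (left), median score percentile among 35268 regions (middle) and median covered width in bp (right). Each point is a library, open where it took part in the choice and filled where it did not, and lines join the means. At 30 min the regions that rank higher at 2 h stand at percentiles 38 to 44.8, between the untreated and the later libraries.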

How the data were processed

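ATAC-seq peak lists of 3 libraries at 2 h of LPS (10 ng/ml) and 3 untreated libraries were used, grouped by sample title, and the 9 lists of the other times served for description. Per the submitters' processing notes, Bowtie 1.1.2, MACS 1.4 and build mm9 were used; settings, duplicates, read shift, control library and blacklist are not stated there. Each deposited list belongs to 1 library and gives a score for each peak, from 50 to 3233.06, which is the caller's own value and was used only to rank and filter within a list. Read depth is unknown, as the lists hold no counts, and no counting interval is given. From every list 2 mitochondrial peaks were removed. No 2 of the 6 lists shared more than 11 identical intervals.

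Peaks overlapping by 1 bp were merged. Presence was called as described, and library totals were set against each other by exact two-sided permutation. In regions with a peak in all 6 libraries, log2 covered width (centred on library medians) and score percentile were tested with limma 3.58.1 (R 4.3.3) over all these regions, two-sided, Benjamini-Hochberg adjusted p under 0.05. Merging, calling and limma were tested on simulated data. Starts are given with the first base as 1. Named were the 12 gained and 12 lost regions whose lowest list percentile was highest, the 10 wider, narrower, higher and lower regions with the largest change among those called with groups fully apart, and stretches of 5 or more changed regions within 100 kb. The comparison and its lists were chosen with earlier results of these data known. Planned gene lists, cell markers and motifs need a genome of build mm9 and were not run.

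Replicate numbers recur in both groups, and same-numbered libraries deviated together in score rank (correlations 0.297, 0.179 and 0.373 across regions), but less in width (0.0351, 0.0773 and 0.101) and presence (0.101, -0.00528 and 0.0668). The tests reported do not block by number. Alternatives were a score of 100 or more, lists of equal length, other rules of presence and merging, uncentred or single-peak widths, normal scores, no regions at the top score, a replicate block, and each library left out.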

Additional observations from a re-analysis of the deposited data

How the results depend on the processing

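Differences between the groups in peaks, covered length and peaks of 5 kb or more kept their sign under every alternative run, and the smallest p that 3 against 3 libraries allow is 0.1. Leaving out 1 library gave 8650 to 16283.5 peaks, 13.3 to 30.9 Mb and 195.5 to 433 wide peaks; the difference in median width ranged from -30.8 to 57.2 bp. Without 1 library, gained regions numbered 5775 to 9842, lost regions 1030 to 2424 and the share of gains 70.4% to 90.5%; wider regions 621 to 1429, narrower 209 to 296, higher 2362 to 4836 and lower 2315 to 5038. The share of gains, 86.1% as reported, was 84.99% with scores of 100 or more. Lists of equal length gave 2282 lost regions and a share of 63.2%, and presence in 2 or 3 of 3 libraries against 0 of 3 gave 10936 gained, 3133 lost and 77.7%. Widths that were not centred gave 165 narrower regions. The widest single peak in place of covered width gave 659 wider and 142 narrower regions, and under it the calls of 1 named wider and 6 named narrower regions were lost; the cause was not tested. With peaks up to 500 bp apart merged, 1 named gained and 4 named lost regions no longer met their rule, and with peaks required to cover 50% of a region 1 named lost region did not. With the replicate block, 1231 regions were wider, 331 narrower, 4574 higher and 5269 lower, and the permutation p of the difference in peaks was 0.25, the smallest 3 pairs allow. The block changed no count by 1.5 times. All 20 named regions higher or lower in rank kept their call under each alternative that held them. With scores of 100 or more none of the 10 named higher regions was tested, since each scored under 100 in an untreated library. Some named lower regions were not tested in that setting either. Several named higher regions were also not held by lists of equal length or without regions at the top score. Depth is unknown, so regions under the caller's threshold cannot be told from closed ones.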

Other observations

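Changed regions were spread over all autosomes and the X chromosome. Of the regions on a chromosome, 4.44% (chromosome 9) to 7.09% (chromosome 18) were gained and 0.436% (chromosome 11) to 1.53% (chromosome X) were lost. In regions with a peak in all 6 libraries, 6.31% (chromosome X) to 11.6% (chromosome 2) ranked higher at 2 h and 8.66% (chromosome 11) to 12.3% (chromosome 13) ranked lower. Chromosome 2 had 549 gained and 61 lost regions, and chromosome 11 had 382 gained and 29 lost ones. In rank, chromosome 13 had 142 higher and 238 lower regions. Lower regions were also the more numerous on most other chromosomes, as they were over all regions tested. None of the 20 regions on chromosome Y was gained or lost. These shares were not tested against each other.

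Regions open in all 6 libraries also differed in how many peaks they held. Of the wider regions, 43.3% had on average more peaks at 2 h than in untreated cells and 16.1% had fewer, where 7.86% and 7.28% did over all regions tested. Of the narrower regions, 14.5% had more peaks at 2 h and 46.9% had fewer. Among the longest split regions, the one at chr11:117882256-117893489 consisted of 3 peaks in each library at 2 h, covering 6677, 8741 and 8909 bp, against 1 peak of 1373, 1463 and 1497 bp in each untreated library. The region at chr11:120484901-120496029 was split without widening, with 9385, 10531 and 9834 bp in 3, 2 and 3 peaks at 2 h, against 10820, 10969 and 10714 bp in 1 peak in each untreated library.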
